A study of Mus musculus with 20 samples.

Results

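Malat1, Neat1, Miat, Snhg11 and Gas5 are long non-coding RNAs, and all but Gas5 are known chiefly as RNAs of the nucleus. On the arrays they were represented by 17 probe sets that carry exactly 1 of these 5 gene symbols, of 45037 non-control probe sets that stand for 18193 named genes: 7 for Malat1, 4 for Gas5 and 2 each for Neat1, Miat and Snhg11. A further probe set carries both Gas5 and a small nucleolar RNA hosted by it and was left out. RNA of whole brains was compared between 10 HDAC4 KO and 10 WT neonates at postnatal day 3, with 1 array per sample and untreated animals throughout. HDAC4 KO pups are homozygous for a knock-out of Hdac4, a class IIa histone deacetylase that represses transcription through factors such as MEF2, and came from intercrosses of a colony whose heterozygous males were bred to B6CBAF1/OlaHsd females. WT pups carry the same labelled background, and the sources used here do not say whether they shared litters with the HDAC4 KO pups. The sources used here do not say which part of Hdac4 the allele lacks. Each genotype has 5 arrays labelled male and 5 labelled female.

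Malat1 is among the most abundant nuclear transcripts of mammalian cells and collects at nuclear speckles, the stores of splicing factors. It carries no ordinary poly(A) tail: its end is cut by RNase P at a tRNA-like fold and protected by a triple helix. Neat1, its neighbour on the chromosome, is the scaffold around which paraspeckles assemble. Miat, also called Gomafu, is a neuronal RNA that is spliced yet kept in the nucleus, where it binds splicing regulators. Snhg11 and Gas5 are hosts of small nucleolar RNAs that are cut from their introns. The spliced Gas5 RNA reaches the cytoplasm, where nonsense-mediated decay degrades it during active translation. The labelled RNA was made from total RNA of the tissue with a 3′ IVT kit, and how the end of Malat1 affects its labelling was not tested. The arrays hold no information on where in the cell, or in which cells, an RNA lay. In whole brain fewer cells of a type and less RNA per cell cannot be told apart.

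Hdac4 was lower on the HDAC4 KO arrays at each of its 3 probe sets, with log2 differences of −1.39, −1.19 and −0.46 (adjusted p from limma of 6.28e-07, 9.48e-07 and 0.0198). Some arrays went against their labels. Xist, expressed from the inactive X chromosome of females, was at 12.65 (log2) on WT replicate 5, labelled male, and at 5.99 on WT replicate 9, labelled female. HDAC4 KO replicate 10, labelled male, had Xist at 12.27 together with a mean of 6.95 over 3 Y-linked genes, a level between those of the other male and female arrays, and its Hdac4 signal was the highest of its genotype at both leading probe sets. WT replicate 8 had the lowest Hdac4 signal of the WT arrays. All labels were kept, and values without these arrays are given where a result rests on them. Array medians lay between 6.26 and 6.32, and the neuronal markers Map2, Rbfox3, Tubb3, Snap25 and Stmn2 averaged between 12.88 and 12.97 on HDAC4 KO arrays and between 12.86 and 12.91 on WT arrays.

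None of the 17 probe sets was called between genotypes at an adjusted p under 0.05, in a comparison that called 2.06% of all probe sets, 1.05% higher and 1.01% lower (limma, Benjamini-Hochberg over 45037). At an unadjusted p under 0.05 there were 5 of 17, or 29.4%, against 18% of all probe sets (9.93% higher and 8.1% lower). These were 3 probe sets of Malat1, lower in HDAC4 KO brains, and 1 each of Neat1 and Miat, higher in them. The 3 of Malat1 shared 1 array pattern, with correlations of 0.99 with the brightest of them. They are therefore not separate observations, and the 29.4% counts that pattern 3 times. The median log2 difference (HDAC4 KO minus WT) was −0.018 over the 17 and 0.0035 over all probe sets, and the 17 ran from −0.48 to 0.35. The genotypes overlapped at every one of the 17, where 0.0777% of all probe sets had no overlap. The two-sample t-test named in the methods and Welch’s test called 0 of the 17 as well.

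**Figure D1:**
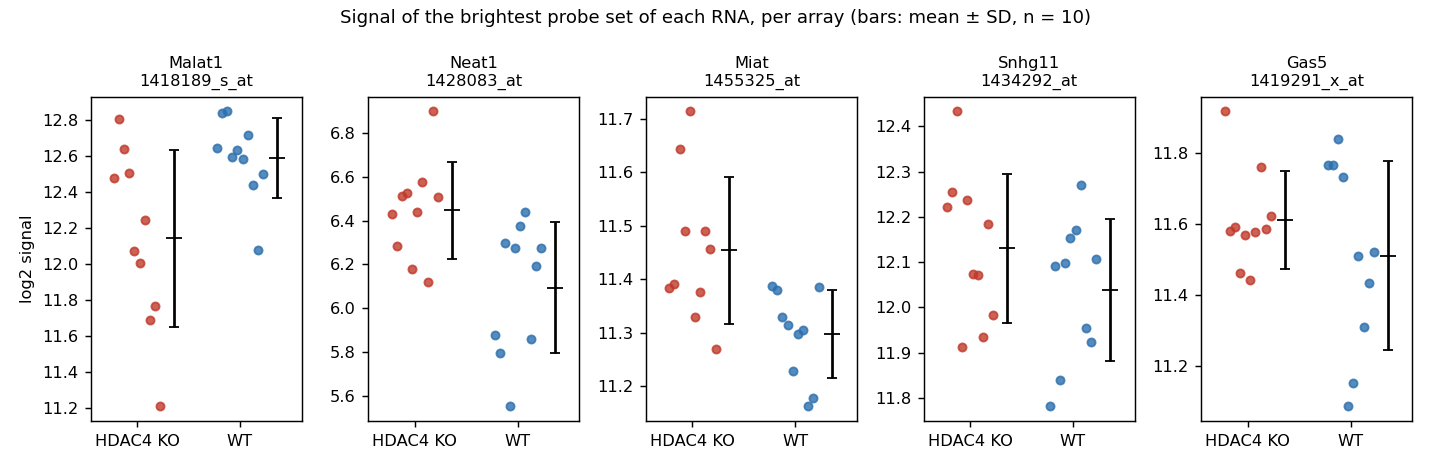
Log2 signal (vertical axis, scaled separately for each RNA) of the brightest probe set of each RNA in every array, HDAC4 KO left and WT right. Black bars give the mean ± SD of 10 arrays. Malat1 spans 11.21 to 12.81 in HDAC4 KO brains and 12.08 to 12.85 in WT brains, and the genotypes overlap for all 5 RNAs.

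Malat1 lies on chromosome 19. The window around its start, shown because Malat1 ran over the widest range of signals of the 5 RNAs at its brightest probe set, holds a match to the MEF2 consensus, printed in capitals. It is taken from RefSeq on GRCm38.p6, minus strand, chr19:5802623-5802922, and runs 5′ to 3′ over 250 bases before and 50 after the annotated start.
Malat1 promoter: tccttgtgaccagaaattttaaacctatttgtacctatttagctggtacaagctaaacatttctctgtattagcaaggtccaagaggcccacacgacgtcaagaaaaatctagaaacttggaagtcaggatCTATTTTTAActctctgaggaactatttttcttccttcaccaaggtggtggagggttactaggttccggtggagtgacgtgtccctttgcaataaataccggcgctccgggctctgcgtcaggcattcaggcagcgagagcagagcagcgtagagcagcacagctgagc
The match CTATTTTTAA begins at position −119 from the start. Of 32851 promoter windows of this length, 3.19% hold a MEF2 consensus on either strand. No such match was in the windows of Miat, Snhg11 or either start of Gas5, and Neat1, which has no window in the table used, was not searched.

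At its brightest probe set, 1418189_s_at, Malat1 had a lowest, median and highest log2 signal of 11.21, 12.16 and 12.81 in HDAC4 KO brains, against 12.08, 12.61 and 12.85 in WT brains. The low values were those of HDAC4 KO replicates 10 (11.21), 8 (11.69) and 9 (11.76), while HDAC4 KO replicate 2 at 12.81 lay below only WT replicates 3 and 2. The lowest WT arrays carried the same replicate numbers, 9 (12.08), 8 (12.44) and 10 (12.50). What the shared numbers stand for is not stated in the sources used here. In all, 5 of 10 HDAC4 KO arrays lay below the lowest WT array and 8 of 10 below the WT mean. The means were 12.14 ± 0.49 in HDAC4 KO brains and 12.59 ± 0.22 in WT brains (SD, n = 10 each). The log2 difference of −0.44 (SE 0.16, 95% interval −0.77 to −0.12) corresponds to a ratio of 0.735 and did not pass the threshold (adjusted p = 0.132 from limma). Without HDAC4 KO replicate 10 it was −0.34 (adjusted p = 0.190), without the 3 arrays against their sex label −0.40 (adjusted p = 0.145), and without replicates 9 and 10 of both genotypes −0.35 (adjusted p = 0.144).

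The other probe sets of Malat1 followed the brightest one to different degrees. Probe sets 1418188_a_at and 1438403_s_at followed it from array to array, with correlations of 0.99 after centring each genotype on its mean (n = 20 arrays; rho 1 and 0.982; permutation p of 1e-05 for each, the smallest the permutations can give). Their log2 differences were −0.47 (adjusted p = 0.147) and −0.48 (adjusted p = 0.158, both from limma), and at both the lowest array was HDAC4 KO replicate 10 and the highest HDAC4 KO array replicate 2. For 1452378_at the correlation was 0.861 (permutation p = 2.0e-05; rho 0.745, permutation p = 0.000560) and the log2 difference −0.26 (95% interval −0.55 to 0.042). For 1427285_s_at the correlation was 0.797 (permutation p = 9.0e-05; rho 0.867, permutation p = 1e-05) and the log2 difference −0.16 (95% interval −0.35 to 0.040). The remaining 2 had log2 differences of the opposite sign. For 1436202_at the correlation was 0.565 (permutation p = 0.00965, adjusted p = 0.0212 over 22 relations; rho 0.467, permutation p = 0.0470, adjusted p = 0.104) and the log2 difference 0.11 (95% interval −0.12 to 0.33). For 1429060_at the correlation was 0.272 (permutation p = 0.235; rho 0.164, permutation p = 0.507) and the log2 difference 0.097 (95% interval −0.056 to 0.25). At 1429060_at the HDAC4 KO arrays ran from 9.14 to 9.58 and the WT arrays from 8.97 to 9.60, and the lowest HDAC4 KO array, again replicate 10, lay within the WT range.

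**Figure D2:**
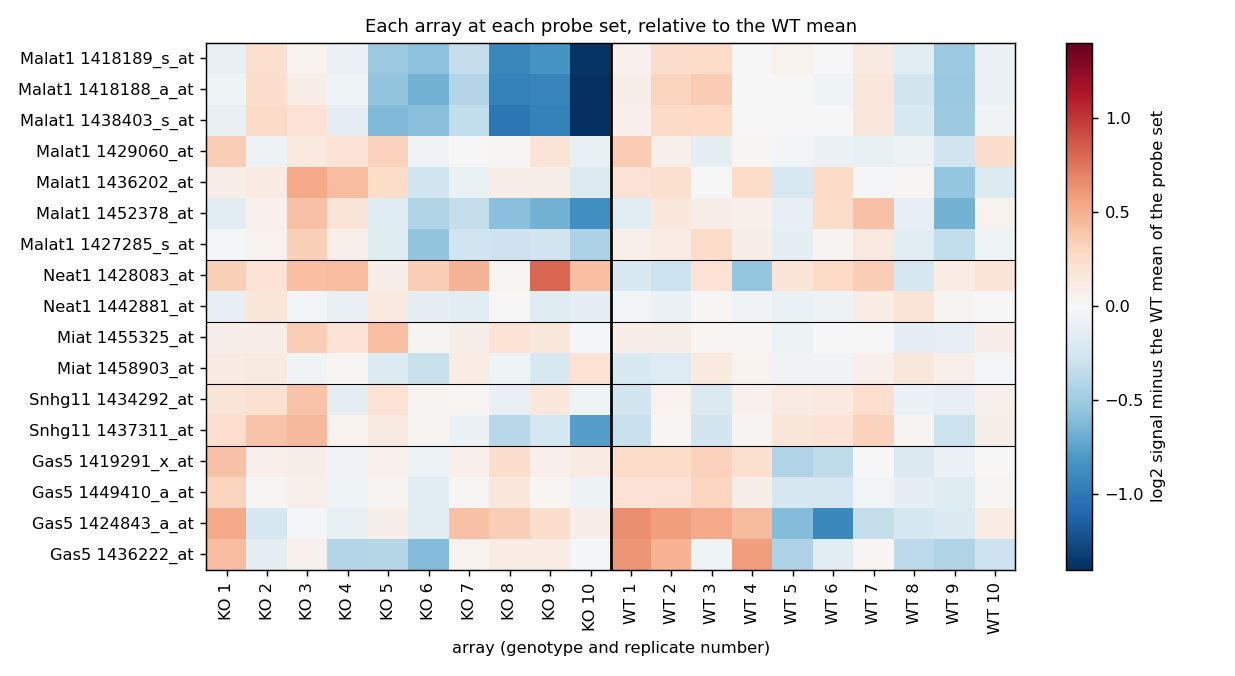
Log2 signal of each array minus the WT mean of the same probe set (color), for the 17 probe sets (rows, grouped by RNA) on the 10 HDAC4 KO arrays (left) and the 10 WT arrays (right). The first 3 Malat1 rows are lowest on HDAC4 KO replicates 8, 9 and 10, and among WT arrays on WT replicates 8, 9 and 10. The 4 Gas5 rows have an SD of 0.27, 0.19, 0.54 and 0.42 among WT arrays, against 0.14, 0.13, 0.26 and 0.31 among HDAC4 KO arrays.

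Whether the probe sets of 1 gene differed in their response was tested on the difference of each from the brightest one within an array, 12 pairs in all. In 4 pairs this difference itself differed between genotypes after adjustment over the 12 (two-sided permutation tests). How often probe sets of other genes move apart in this way was not tested. For Malat1, the log2 difference between genotypes was −0.44 at 1418189_s_at. That at 1436202_at lay 0.55 above it (adjusted p = 0.0143), that at 1429060_at 0.54 above it (adjusted p = 0.0320) and that at 1427285_s_at 0.29 above it (adjusted p = 0.0355). The difference was above the WT mean in 9 of 10 HDAC4 KO arrays for each of these 3 probe sets, and above every WT array in 7, 7 and 5 of them. For Neat1, the log2 difference at 1442881_at relative to that at 1428083_at was −0.41 (adjusted p = 0.0355). The log2 differences themselves were −0.056 at 1442881_at and 0.35 at 1428083_at. Both probe sets are dim, near the array medians of 6.26 to 6.32, and the pair passed in 13 of 20 runs with 1 array left out. Only 1436202_at passed with any 1 of the 20 arrays left out. The count of pairs was 1 without WT replicate 2, HDAC4 KO replicate 9 or HDAC4 KO replicate 10, and 2 without WT replicate 1, 4 or 8. The files do not say which stretch of an RNA each probe set covers, and a suffix _s_at or _x_at marks probes that may also bind other transcripts.

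The 3′ minus 5′ control signal is the mean, over the actin and Gapdh control genes, of the log2 signal at the 3′ end minus that at the 5′ end, and grows as labelling reaches less far from the 3′ end. It was 0.216 ± 0.030 in HDAC4 KO brains (0.181 to 0.262) and 0.191 ± 0.031 in WT brains (0.154 to 0.233; SD, n = 10 each), a difference of 0.0250 that did not pass (two-sided permutation test, p = 0.0832). Taken alone, actin differed by 0.0399 (p = 0.0477) and Gapdh by 0.00996 (p = 0.476) in the same test. The highest values were on HDAC4 KO replicates 10 and 3, at 0.262 and 0.254, and of these replicate 10 had the lowest Malat1 signal (11.21) and replicate 3 the second highest of its genotype (12.64).

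Fitted within genotypes, the 3 leading probe sets of Malat1 had slopes of −5.84, −6.27 and −6.18 log2 units per unit of control signal. For 1418189_s_at this is −0.29 per 0.05 of control signal. None of the 17 slopes passed over all probe sets (limma, adjusted p from 0.849 to 0.999), nor did that of any other probe set, so the share of all probe sets called was 0%. At an unadjusted p under 0.05 there were these 3 of 17, where the share of all probe sets was 5.63% (3.48% negative and 2.14% positive). The 3 share 1 array pattern, so they are not separate observations. The slopes of the remaining Malat1 probe sets had an unadjusted p from 0.438 to 0.893 (limma). Of the 17 slopes 11 were negative, and of all 45037 slopes 21592 were. With the control signal as a covariate the log2 difference of Malat1 was −0.30, −0.31 and −0.33 at the 3 probe sets (adjusted p = 0.413, 0.435 and 0.450 from limma), a fit in which 0.0955% of all probe sets were called and 13.6% had an unadjusted p under 0.05, against 2 of the 17, those of Neat1 and Miat.

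Array by array, the correlation of Malat1 1418189_s_at with the control signal was −0.464 after centring on genotype means (n = 20; permutation p = 0.0394, adjusted p = 0.365 over 17 probe sets; rho −0.491, permutation p = 0.0352, adjusted p = 0.246). It was −0.591 within HDAC4 KO arrays (permutation p = 0.0713) and −0.314 within WT arrays (permutation p = 0.405). Leaving out HDAC4 KO replicates 10 and 3, the 2 arrays farthest from the median control signal, gave −0.508 (permutation p = 0.0197). Without HDAC4 KO replicate 3 alone it was −0.63 (adjusted p = 0.0159), and 3 of the 17 relations then passed, whereas none passed with all arrays. The brightest probe sets of Neat1, Miat, Snhg11 and Gas5 were not among them (adjusted p from 0.623 to 0.689, permutation tests). The share of all probe sets that would pass was not tested. Without HDAC4 KO replicate 10 alone the correlation of Malat1 1418189_s_at was −0.32 (adjusted p = 0.813), the value nearest 0 with any 1 array left out. At the Malat1 probe set 1436202_at the correlation was 0.030 (permutation p = 0.902; rho 0.042, permutation p = 0.870). Snhg11 1434292_at ran the other way, at 0.318 over all arrays (permutation p = 0.183; rho 0.309, permutation p = 0.201), with 0.011 within HDAC4 KO arrays and 0.625 within WT arrays. The second Snhg11 probe set, 1437311_at, was at −0.123 (permutation p = 0.614; rho 0.152, permutation p = 0.541), with −0.539 within HDAC4 KO arrays and 0.531 within WT arrays. Neat1 1428083_at was at 0.256 (permutation p = 0.292), Miat 1455325_at at 0.0025 (permutation p = 0.992) and Gas5 1419291_x_at at −0.126 (permutation p = 0.613). For this Gas5 probe set rho was 0.721 within HDAC4 KO arrays (permutation p = 0.0227, adjusted p = 0.386) and −0.527 within WT arrays (permutation p = 0.121). Whether the genotypes differ in this was not tested.

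**Figure D3:**
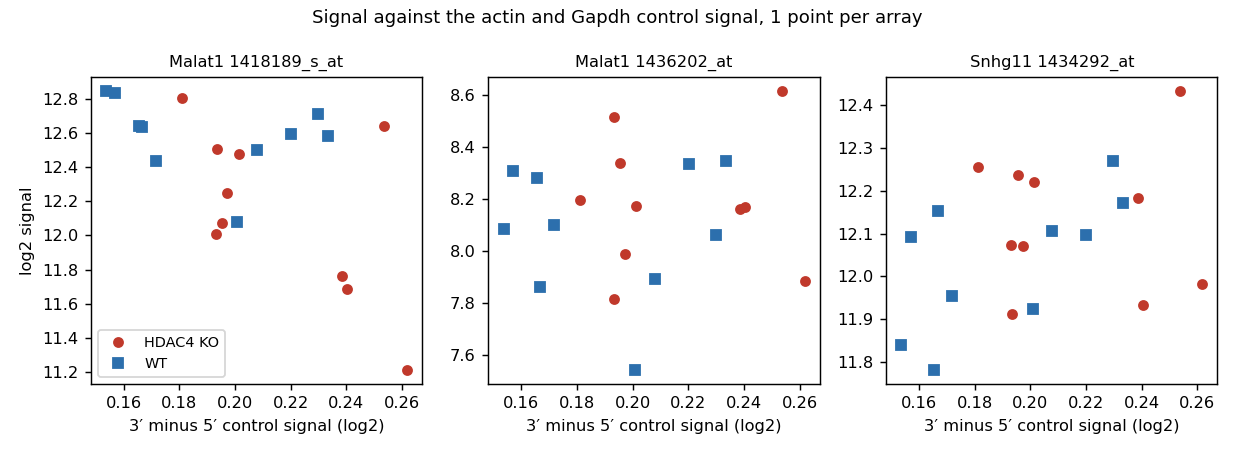
Log2 signal (vertical axes) of 2 Malat1 probe sets and 1 Snhg11 probe set against the 3′ minus 5′ control signal of the array (horizontal axes, log2), for 10 HDAC4 KO arrays (red circles) and 10 WT arrays (blue squares). Malat1 1418189_s_at is at 11.21 on the HDAC4 KO array with the highest control signal, 0.262, while the array at 0.254 is at 12.64.

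Neat1 was higher in HDAC4 KO brains at 1428083_at without passing the threshold. Its lowest, median and highest log2 signals were 6.12, 6.48 and 6.90 in HDAC4 KO brains, against 5.55, 6.23 and 6.44 in WT brains. All 10 HDAC4 KO arrays lay above the WT mean and 6 above the highest WT array, and the 4 lowest arrays, between 5.55 and 5.88, were WT replicates 4, 2, 8 and 1. The means were 6.45 ± 0.22 in HDAC4 KO brains and 6.09 ± 0.30 in WT brains (SD, n = 10 each), a log2 difference of 0.35 (SE 0.11, 95% interval 0.13 to 0.58, ratio 1.28, adjusted p = 0.0883 from limma). The signal is close to the array medians of 6.26 to 6.32, so the probe set is a dim one. With the control signal as covariate the log2 difference was 0.30 (adjusted p = 0.267).

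The second Neat1 probe set, 1442881_at, did not share this pattern. It ran from 6.10 to 6.44 in HDAC4 KO brains and from 6.18 to 6.45 in WT brains, and 6 of 10 HDAC4 KO arrays lay below the lowest WT array. The log2 difference was −0.056 (95% interval −0.15 to 0.042, adjusted p = 0.580 from limma). Across arrays the 2 probe sets of Neat1 had a correlation of −0.299 (permutation p = 0.189; rho −0.279, permutation p = 0.249). Within HDAC4 KO arrays it was −0.724 (permutation p = 0.0156, adjusted p = 0.0381 over 22 relations; rho −0.758, permutation p = 0.0150) and within WT arrays 0.110 (permutation p = 0.763), and whether the genotypes differ in this was not tested. Neat1 and Malat1, with 1 annotated gene between them, had a correlation of −0.064 at their brightest probe sets (n = 20; permutation p = 0.772; rho 0.103, permutation p = 0.679).

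Miat ran over the narrowest range of the brightest probe sets, and was higher in HDAC4 KO brains at 1455325_at, again without passing. Its lowest, median and highest log2 signals were 11.27, 11.42 and 11.71 in HDAC4 KO brains, against 11.16, 11.31 and 11.39 in WT brains. Of the HDAC4 KO arrays 9 of 10 lay above the WT mean and 6 above the highest WT array, with replicates 5 (11.71) and 3 (11.64) the brightest. The means were 11.45 ± 0.14 in HDAC4 KO brains and 11.30 ± 0.08 in WT brains (SD, n = 10 each), a log2 difference of 0.16 (SE 0.050, 95% interval 0.053 to 0.26, ratio 1.12, adjusted p = 0.0971 from limma). The control signal as covariate left it at 0.16 (adjusted p = 0.218), and the slope on the control signal was 0.0092. Probe set 1458903_at was dimmer and ran from 6.46 to 6.97 in HDAC4 KO brains and from 6.56 to 6.92 in WT brains, a log2 difference of −0.026 (95% interval −0.16 to 0.11). It tended to be low where 1455325_at was high, with a correlation of −0.454 (n = 20; permutation p = 0.0684, adjusted p = 0.137; rho −0.464, permutation p = 0.0475, adjusted p = 0.104) in a family of 22 relations that was chosen after the values were seen.

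Snhg11 was well above the array medians at both probe sets, and neither passed. At 1434292_at the lowest, median and highest log2 signals were 11.91, 12.13 and 12.43 in HDAC4 KO brains, against 11.78, 12.09 and 12.27 in WT brains. The means of 12.13 ± 0.16 in HDAC4 KO brains and 12.04 ± 0.16 in WT brains (SD, n = 10 each) gave a log2 difference of 0.091 (SE 0.068, 95% interval −0.051 to 0.23, adjusted p = 0.521 from limma). At 1437311_at the HDAC4 KO arrays were more widely spread, from 10.23 to 11.46 with an SD of 0.37, against 10.69 to 11.33 with an SD of 0.22 in WT brains. The lowest, at 10.23, was HDAC4 KO replicate 10, and the log2 difference of −0.018 (95% interval −0.28 to 0.24) was 0.069 without that array and WT replicate 8.

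This second Snhg11 probe set moved with Malat1 from array to array. The correlation of 1437311_at with Malat1 1418189_s_at was 0.788 after centring on genotype means (n = 20; permutation p = 0.000310, adjusted p = 0.000852 over the 22 relations), while the rank correlation was 0.436 and did not pass (permutation p = 0.0636, adjusted p = 0.127). Within HDAC4 KO arrays it was 0.938 (permutation p = 9.0e-05) and within WT arrays 0.248 (permutation p = 0.508); whether the 2 genotypes differ in this was not tested. Without HDAC4 KO replicates 10 and 8, the arrays farthest from the median of Malat1, it was 0.572 (permutation p = 0.0175). The brighter Snhg11 probe set had a correlation of 0.390 with Malat1 (permutation p = 0.106; rho 0.236, permutation p = 0.331).

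Gas5 was called at none of its 4 probe sets. At the brightest, 1419291_x_at, the lowest, median and highest log2 signals were 11.44, 11.58 and 11.92 in HDAC4 KO brains, against 11.09, 11.51 and 11.84 in WT brains. The means were 11.61 ± 0.14 in HDAC4 KO brains and 11.51 ± 0.27 in WT brains (SD, n = 10 each), a log2 difference of 0.10 (95% interval −0.085 to 0.28, adjusted p = 0.606 from limma). The other log2 differences were 0.12 at 1424843_a_at, 0.035 at 1449410_a_at and −0.083 at 1436222_at (adjusted p from 0.780 to 0.849 from limma). The widest interval among them, at 1424843_a_at, ran from −0.24 to 0.48. At that probe set the HDAC4 KO arrays ran from 8.46 to 9.22 and the WT arrays from 7.79 to 9.34, where WT replicates 1, 2, 3 and 4 lay between 9.14 and 9.34 and the other 6 WT arrays between 7.79 and 8.80. The 4 probe sets moved together across arrays, with correlations of 0.942, 0.909 and 0.751 with the brightest (n = 20; permutation p of 1e-05, 1e-05 and 0.000620; rho 0.812, 0.770 and 0.800, permutation p of 2.0e-05, 0.000240 and 1.0e-04).

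Gas5 lies on chromosome 1, as does Hdac4, with 862 annotated genes between them, and has 2 windows in the promoter table. The second, printed because it is the only 1 of the 5 windows with a full cyclic AMP response element, TGACGTCA on either strand, the site bound by CREB, is from RefSeq on GRCm38.p6, plus strand, chr1:161034916-161035215, with the element in capitals.
Gas5 promoter, second start: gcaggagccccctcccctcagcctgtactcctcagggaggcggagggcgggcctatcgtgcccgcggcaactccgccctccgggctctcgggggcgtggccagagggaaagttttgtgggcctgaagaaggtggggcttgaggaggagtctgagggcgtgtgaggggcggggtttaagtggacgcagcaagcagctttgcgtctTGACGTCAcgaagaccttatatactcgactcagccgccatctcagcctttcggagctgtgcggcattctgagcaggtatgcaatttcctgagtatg
The element begins at position −46, and 1.79% of the 32851 windows hold 1. No element was in the Malat1 window or in those of Miat and Snhg11.

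**Figure D4:**
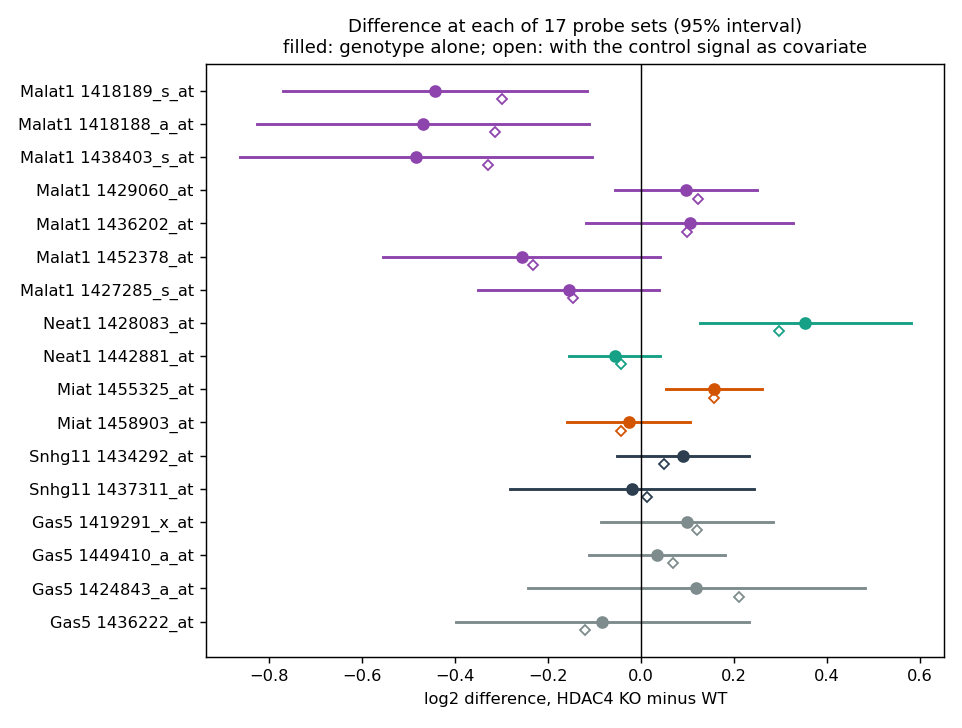
Log2 difference between HDAC4 KO and WT brains (horizontal axis, above 0 for higher in HDAC4 KO) at each of the 17 probe sets, with its 95% interval from limma (filled circles, n = 10 per genotype) and with the 3′ minus 5′ control signal as covariate (open diamonds). The Malat1 probe sets run from −0.48 to 0.11, and the 3 lowest are nearer 0, at −0.30 to −0.33, with the covariate.

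No interaction of genotype with labelled sex passed. In a fit of 4 groups, the interaction of genotype and labelled sex had an adjusted p of at least 0.935 at the 17 probe sets (limma), with 0 of 17 at an unadjusted p under 0.05, where 5.35% of all probe sets were at that level and 0% were called. Malat1 1418189_s_at differed by −0.41 in arrays labelled male and by −0.48 in arrays labelled female, and Neat1 1428083_at by 0.40 in arrays labelled male and by 0.30 in arrays labelled female. Leaving out the 3 arrays against their sex label gave 0 interactions as well.

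The genes whose signal followed each RNA most closely across the 20 arrays, after centring on genotype means, differed between the 5 RNAs. These are the highest of the correlations with 18144 other genes, so they are given as a description without a test. For Malat1 they were Rbm26 (r = 0.970), which encodes an RNA-binding protein, Rsrc2 (0.958) and Plxnc1 (0.949), a semaphorin receptor. Without the 3 arrays against their sex label the 3 correlations were 0.952, 0.924 and 0.913. All 20 of the genes most like Malat1 1418189_s_at were lower in HDAC4 KO brains by sign, with a median log2 difference of −0.23. Of them 2, Plxnc1 and Cep350, were called lower (−0.73 and −0.69, adjusted p = 0.0226 and 0.0328 from limma). These 20 share 1 array pattern (r of at least 0.92 with Malat1), so their signs are not separate observations. At 1418188_a_at and 1438403_s_at all 20 most alike genes were lower by sign as well. The count was 17 of 20 at 1452378_at, 10 at 1427285_s_at, 8 at 1436202_at and 3 at 1429060_at. Of all 45037 probe sets, 21656 were lower by sign and 1.01% were called lower. For Miat they were the imprinted long non-coding RNA Meg3 (0.901), the phosphofructokinase gene Pfkp (0.896) and the splicing factor gene Luc7l3 (0.887), and Luc7l3 was called higher (0.24, adjusted p = 0.0143).

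At their brightest probe sets, Neat1, Snhg11 and Gas5 had several genes of their own chromosome among the most alike. Neat1 1428083_at was most like Ehd1 (0.858), a gene of endosomal recycling, and 2700081O15Rik (0.804), both on chromosome 19 with 39 and 96 annotated genes between, and Ogg1 (0.797), a DNA repair enzyme gene on chromosome 6. Snhg11 was most like Rbm39 (0.825), Epb41l1 (0.823) and Zmynd8 (0.805), all on chromosome 2 with 71, 61 and 168 genes between. Gas5 was most like Ddr2 (0.869), Abl2 (0.843) and Tnr (0.823), all on chromosome 1 with 179, 63 and 21 genes between. Of the 20 most alike genes, 10 lay on the chromosome of Neat1, 8 on that of Snhg11 and 8 on that of Gas5, where that chromosome holds 3.36%, 7.75% and 5.87% of all genes compared. The same count was 1 for Malat1 and 0 for Miat, whose chromosomes hold 3.36% and 6.23% of the genes. It differed between the probe sets of 1 RNA. It was 0 for Neat1 1442881_at, 5 for Miat 1458903_at and 3 for Snhg11 1437311_at. For Gas5 it was 11 at 1424843_a_at, 6 at 1449410_a_at and 1 at 1436222_at, and for the other Malat1 probe sets 0 to 2. Without the 3 arrays against their sex label the counts were 7 for Neat1, 7 for Snhg11 and 7 for Gas5, and without replicates 9 and 10 of both genotypes 4, 7 and 9.

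**Figure D5:**
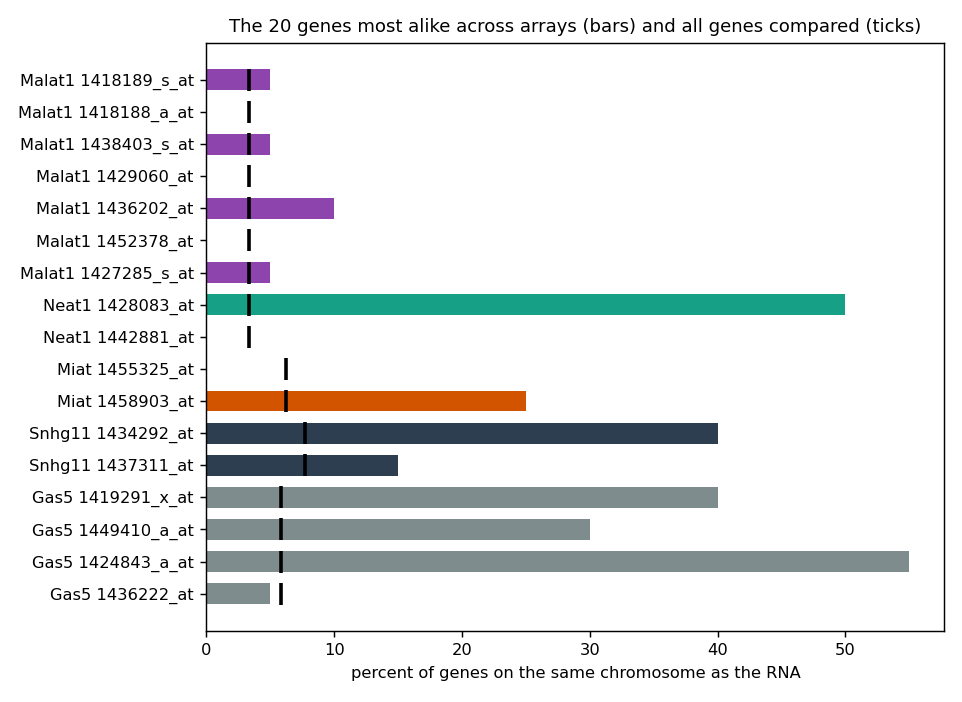
Percent of the 20 genes most alike across arrays that lie on the same chromosome as the RNA (bars, for each of the 17 probe sets) and percent of all 18144 genes compared that lie there (black ticks). Bars stand farthest above their ticks for Neat1 1428083_at (10 of 20), Snhg11 1434292_at (8 of 20) and 3 of 4 Gas5 probe sets (6 to 11 of 20), less so for Miat 1458903_at (5 of 20), Snhg11 1437311_at (3 of 20) and the Malat1 probe sets with 1 or 2 of 20, and below them for the others.

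Among other long non-coding RNAs measured, 1 of 19 was called at its brightest probe set, where 2.06% of all probe sets were called (1.05% higher and 1.01% lower). Of the 19, 1 was higher and 2 were lower at an unadjusted p under 0.05. The called one, Mir9-3hg, host of a neural microRNA, was higher at 8.69 ± 0.13 in HDAC4 KO brains against 8.47 ± 0.12 in WT brains (SD, n = 10 each). Its log2 difference was 0.21 (adjusted p = 0.0424 from limma), beside a median of 0.036 for the list. This call and that of Celf2, given with the RNA-binding partners, were both lost with any of 13 single arrays left out and with the control, actin or Gapdh signal as covariate. Of 18 other host genes of small nucleolar RNAs, the class of Snhg11 and Gas5, none was called at its brightest probe set, 4 were higher and 1 lower at an unadjusted p under 0.05, and the median was 0.051. At that level 9.93% of all probe sets were higher and 8.1% lower. At other probe sets Snhg14 1445296_at was called lower (−0.46, adjusted p = 0.0246) and Snhg10 1447995_x_at higher (0.14, adjusted p = 0.0453 from limma). At the brightest probe sets the smallest p were those of Eef1b2 (−0.086, adjusted p = 0.163) and Snhg16 (0.12, adjusted p = 0.165 from limma). Of 17 genes of paraspeckle proteins, the partners of Neat1, none was called and 1 was higher and 2 lower at an unadjusted p under 0.05, with Cpsf6 at 0.11 (adjusted p = 0.0807) and Sfpq at −0.11 (adjusted p = 0.219 from limma). Of 21 genes of nuclear speckle proteins, Acin1 was called lower at its brightest probe set (−0.33, adjusted p = 0.0333 from limma). At an unadjusted p under 0.05, 2 genes of this list were higher and 2 lower, with Acin1 among the lower. At dimmer probe sets of the list Pnn 1423325_at (−0.64, adjusted p = 0.0286) and Srsf6 1448454_at (−0.17, adjusted p = 0.0212) were called lower and Luc7l3 1437570_at higher (0.24, adjusted p = 0.0143 from limma), while at their brightest probe sets Pnn, Srsf6 and Luc7l3 were at 0.00055, 0.096 and 0.018, none of them called.

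Of 13 RNA-binding partners of Malat1 and Miat, Celf2, a splicing regulator that binds Miat, was called higher (0.12, adjusted p = 0.0425 from limma), and also at 1439777_at (0.16, adjusted p = 0.0427). At an unadjusted p under 0.05, Celf2 was the 1 higher gene of the list and 3 were lower. Of all probe sets 9.93% were higher and 8.1% lower at that level, and 1.05% were called higher and 1.01% lower. Of 12 genes of tRNA-type 3′ end processing and m6A methylation, Mettl16, whose product binds the triple helix of Malat1, was called lower, at 8.40 ± 0.14 in HDAC4 KO brains against 8.73 ± 0.09 in WT brains (SD, n = 10 each; log2 difference −0.33, adjusted p = 0.00425 from limma). Of 10 nonsense-mediated decay factors, which act on Gas5, none was called and 2 were higher at an unadjusted p under 0.05, Smg8 (0.11) and Smg5 (0.075), beside 9.93% of all probe sets. With the control signal as covariate, 0 genes of all the lists were called higher and 1 lower. At most 1 of the lower calls of Acin1, Mettl16 and Ttr, the last given with the cell type markers, thus held in that fit. The count lower was also 1 without the 3 arrays against their sex label.

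Among the markers of brain cell types 1 was called, in a comparison that called 2.06% of all probe sets. At the brightest probe sets none of the 5 markers each of neurons, astrocytes, oligodendrocyte lineage, microglia and endothelial cells was called, nor any of 4 of meningeal fibroblasts or 3 of erythroid cells. At an unadjusted p under 0.05, where 9.93% of all probe sets were higher and 8.1% lower, were 5 higher and 3 lower besides the called one. The higher ones were the neuronal marker Rbfox3 (0.12), the microglial C1qa, Csf1r and Tyrobp (0.21, 0.17 and 0.18) and the erythroid Alas2 (0.18). The lower ones were Fabp7 of radial glia (−0.11), Lum of meningeal fibroblasts (−0.25) and Folr1 of choroid plexus (−0.30). Each of these lists also held markers of the opposite sign. Median log2 differences were 0.0036 for neurons, 0.17 for microglia (lowest −0.035) and 0.081 for erythroid cells (lowest −0.061). They were −0.00065 for astrocytes and radial glia (highest 0.16), −0.044 for meningeal fibroblasts (highest 0.068) and −0.13 for choroid plexus (highest 0.027). The microglial list averaged between 8.35 and 8.76 on HDAC4 KO arrays and between 8.27 and 8.59 on WT arrays. Of the 4 choroid plexus markers Ttr was called lower (−0.14, adjusted p = 0.0420 from limma), and the list averaged between 8.06 and 8.31 on HDAC4 KO arrays and between 8.09 and 8.55 on WT arrays. Their part in the values of the 5 RNAs was not tested.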

How the data were processed

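RNA of 20 whole brains was labelled by the authors with a 3′ IVT kit and hybridized to Affymetrix mouse genome arrays, 1 per sample. The authors excluded chips by their normalized unscaled standard error and deposited the signals on the log2 scale; the sources used here do not state how these were summarised and normalized. Precision is limited by the number of arrays. The labels name each array as a separate sample, so p-values measure the spread between these samples.

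After removal of 64 controls, 45037 probe sets entered linear models in limma (version 3.58.1, R 4.3.3; lmFit, eBayes), with Benjamini-Hochberg adjustment over all of them and a threshold of 0.05. Of the probe sets, 34945 carry 1 symbol, 932 several and 9160 none. The methods name a two-sample t-test, which was run as an alternative. Single values were compared with two-sided permutation tests of 100000 resamples in Python 3.11.15 with NumPy 2.4.6. The brightest probe set is the one with the highest mean over the 20 arrays, and stands for a gene of a list. Named genes are all probe sets of the 5 RNAs, up to 2 called genes each way or else the 2 with the smallest p of each list, and the 3 most alike genes of each RNA. Genes named beyond that (Xist, Cep350, Tyrobp, Folr1, Snhg14, Snhg10, Pnn and Srsf6) were chosen after their values were seen. Gene order and promoter windows came from RefSeq on GRCm38.p6; the files name no build. The RNAs and the lists were chosen with earlier results of these data known, and the relations between probe sets and the comparison by chromosome after their values were seen. Tests were tried on simulated data. Alternatives changed the test, covariates, normalization, filter, probe set and arrays.

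Over all probe sets, replicate numbers did not pair the arrays: of 10 pairs, 1 correlated above 0.1 (−0.149 to 0.162).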

Additional observations from a re-analysis of the deposited data

Results flagged for a closer look

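In 2 of 40 groups of 10 arrays, 1 array lay apart from the rest by more than its critical gap, where chance gives about 1 in 20 groups. Both were WT replicate 9 at Malat1, which has its sex-linked genes against its label. At 1418189_s_at it had 12.08 (log2), and the next lowest WT array 12.44. At 1452378_at it had 7.54, and the next lowest WT array 8.05. Without WT replicate 9 the log2 difference at 1418189_s_at was −0.50 (adjusted p = 0.0805 from limma).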

How the results depend on the processing

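The 17 probe sets had 0 calls under every alternative but 1, the replicate number as a block (replicate block). There 2 Malat1 probe sets were called lower, 1418188_a_at (adjusted p = 0.0398) and 1418189_s_at (adjusted p = 0.0499, limma). Over all probe sets the numbers did not pair the arrays. At these 2 Malat1 probe sets, however, replicates 8, 9 and 10 were the lowest arrays of each genotype. What the numbers stand for is not stated in the sources used here. Over the lists, 2 genes were called higher and 3 lower. The count higher was 1 by Welch's test, quantile normalization, the most variable or the mean of the probe sets, 0 with the control, actin or Gapdh signal as covariate or the block, and 4 with trend and robust eBayes or without dim probe sets. The count lower was 1 with each of those 3 covariates or the mean of the probe sets, and 5 with trend and robust eBayes, array weights, no dim probe sets or the most variable probe set. Without the 2 arrays between the genotypes the counts were 0 and 1, and without the 3 arrays against their sex label 1 and 1. With 1 array left out, 0 to 3 list genes were higher and 1 to 4 lower. None was higher without WT replicate 1, 2, 3, 4, 5, 6, 7 or 8 or HDAC4 KO replicate 1, 5, 7, 8 or 9. The probe sets of 1 gene that moved apart numbered 4, 7 against the mean of the other probe sets, and 1 to 5 with 1 array left out. Relations with the control signal that passed numbered 0 to 3, and the genotype difference of the control signal was 0.0198 to 0.0297, with 1 array left out, and 0.0399 for actin alone. The sign of Snhg11 1437311_at turned with array weights (0.0042), the control signal (0.013) or actin (0.035) as covariate, without the 2 arrays (0.069), the 3 arrays (0.049) or replicates 9 and 10 (0.076), and that of Gas5 1449410_a_at without the 3 arrays (−0.0020). Slopes turned for Miat with actin alone (−0.18) or quantile normalization (−0.13), for Gas5 with actin (0.17) or the block (0.042), and for Neat1 with the block (−0.72). Correlations with the control signal turned for Miat as Spearman's rho (−0.13) or with actin (−0.067), and for Gas5 likewise (0.097 and 0.033). With 1 array left out, values that crossed 0 ranged from −0.051 to 0.0053 for the difference of Miat 1458903_at, −0.071 to 0.065 for that of Snhg11 1437311_at, and −0.040 to 0.063 for Gas5 1424843_a_at against 1419291_x_at. Slopes ranged from −0.52 to 0.68 for Miat and −1.63 to 0.17 for Gas5, and correlations from −0.15 to 0.18 for Miat and −0.26 to 0.025 for Gas5. The causes were not tested. Leaving out replicates 9 and 10 was chosen after seeing the data. Dim probe sets such as Neat1 1428083_at lie near the array medians, where signal over background limits what can be measured.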
